A study of Mus musculus with 6 samples.

Results

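The subcortical maternal complex is an assembly of proteins made by the growing oocyte and held beneath its cell membrane. The genes described here are *Nlrp5*, *Ooep*, *Tle6*, *Khdc3*, *Padi6* and *Zbed3*, chosen by their symbols because their proteins are known parts of the complex or of the cytoplasmic lattices tied to it. All 6 were found in the deposited table of 25631 genes, and all 6 were among the 10340 genes with an FPKM (fragment count scaled to transcript length in kilobases and to library depth) of at least 1 in at least 3 libraries, the genes that were tested.

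RNA was sequenced from oocytes of naturally aged ICR mice, 14 months old, in 3 control and 3 aminophylline libraries. The aminophylline group drank 4.0 mM aminophylline for 1 week and then water alone for 3 weeks, while the control group was labelled as untreated. Aminophylline is a salt of theophylline, an inhibitor of the phosphodiesterases that break down cyclic AMP. Mice of both groups received gonadotropin, and the oocytes were punctured from large antral follicles, so that every library came from old, hormone-primed females and none from young ones. The labels do not say how many oocytes or mice went into a library or whether libraries came from separate mice, so p-values measure only the spread between these libraries, which may be technical.

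The genes of the complex are transcribed while the oocyte grows, and their products are carried over into the embryo. They are maternal-effect genes: females that lack one of the core members ovulate, but their embryos commonly stop during early cleavage. The complex is known for positioning the spindle through the actin cytoskeleton, for symmetric division of the zygote, for distributing organelles, and for the fibrous lattices in which the oocyte stores proteins.

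The recovered depth was 14112341 to 33641283 reads per library, with control 2 the shallowest. The 10 oocyte marker genes summed to 18586 to 25467 FPKM in the control group and 19415 to 22857 FPKM in the aminophylline group. The 12 granulosa and cumulus cell markers summed to 16.0 to 23.9 FPKM and 17.7 to 22.7 FPKM. Most of that sum came from *Cyp19a1* (12.3 ± 4.38 and 9.60 ± 1.41 FPKM) and *Nr5a2* (5.85 ± 1.23 and 7.67 ± 0.754 FPKM, SD, n = 3 each). Control 1 stood apart. Macrophage markers summed to 257 FPKM there, against 82.0 and 103 FPKM in the other control libraries and 82.5 to 101 FPKM in the aminophylline libraries, and 9 of the 11 macrophage markers in the table were highest in control 1. A single marker, *C1qb*, made up most of the sum in the other 5 libraries and was not raised in control 1 (72.3 FPKM, against 79.2 to 99.8 FPKM elsewhere). Without it the sum was 185 FPKM in control 1 and 2.17 to 3.48 FPKM in the other libraries. *Lyz2*, the lysozyme of macrophages, was at 66.4 FPKM in control 1 and at most 0.573 FPKM elsewhere. The part of this library in the results was not tested beyond leaving it out. FPKM is scaled to library depth, so the values show neither the number of oocytes in a library nor the amount of RNA per oocyte.

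The 6 genes lie on 5 chromosomes (coordinates on GRCm38). *Nlrp5* (NCBI gene 23968), which encodes the NLR-family protein also called MATER, spans chr7:23385889-23441922 on the plus strand with 16 exons in its principal transcript, next to its relative *Nlrp4e*. *Ooep* (67968), encoding the KH-domain protein FLOPED around which the complex assembles, occupies chr9:78376109-78378725 on the minus strand with 3 exons, and the nearest coding gene on 1 side was *Dppa5a*, another KH-domain gene. *Tle6* (114606), a Groucho-family protein that binds the other core subunits, lies at chr10:81590904-81601073 on the minus strand with 14 exons, 59 bases from *Tle2*. *Khdc3* (66991), encoding FILIA, a KH-domain protein with a role in spindle assembly and genome integrity, lies at chr9:73101836-73104438 on the plus strand with 3 exons. Its exons overlap *Gm20509* on the same strand, so reads of these genes cannot be told apart there and the *Khdc3* values are uncertain to that extent. *Padi6* (242726), a peptidylarginine deiminase family member needed for the cytoplasmic lattices, lies at chr4:140727355-140742643 on the minus strand with 16 exons, beside *Padi4*. *Zbed3* (72114), a BED-type zinc finger protein that binds Axin, lies at chr13:95323612-95337841 on the plus strand with 2 exons.

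In the Gene Ontology terms deposited with the table, "subcortical maternal complex" was given to exactly 4 genes, namely *Nlrp5*, *Ooep*, *Tle6* and *Khdc3*. The term "establishment of spindle localization" was given to 6 genes, of which *Nlrp5*, *Ooep*, *Tle6* and *Zbed3* were 4. *Padi6* was the member without the term "actin filament organization", which the other 5 shared and which 116 genes in the table carried.

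FIGLA, a helix-loop-helix factor of the oocyte, binds E-boxes, written CANNTG, and the start regions of the 6 genes were searched for these letters. The 250 bases before the RefSeq start site are shown for 3 members that each hold a pair of E-boxes there, 5′ to 3′ on the gene's strand, with the E-boxes in capitals. They are *Nlrp5* at chr7:23385639-23385888, plus strand, *Tle6* at chr10:81600901-81601150, minus strand, and *Padi6* at chr4:140742644-140742893, minus strand (RefSeq, GRCm38.p6).
Nlrp5: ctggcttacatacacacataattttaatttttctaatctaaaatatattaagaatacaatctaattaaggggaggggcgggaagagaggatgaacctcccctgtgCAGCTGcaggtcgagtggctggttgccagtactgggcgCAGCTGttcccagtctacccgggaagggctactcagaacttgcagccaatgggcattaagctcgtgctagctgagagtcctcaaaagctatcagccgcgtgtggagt
Tle6: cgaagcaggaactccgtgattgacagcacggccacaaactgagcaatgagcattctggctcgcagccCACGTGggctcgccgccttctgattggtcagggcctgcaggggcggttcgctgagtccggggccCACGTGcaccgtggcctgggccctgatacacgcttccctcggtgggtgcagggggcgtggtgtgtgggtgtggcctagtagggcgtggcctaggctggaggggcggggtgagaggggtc
Padi6: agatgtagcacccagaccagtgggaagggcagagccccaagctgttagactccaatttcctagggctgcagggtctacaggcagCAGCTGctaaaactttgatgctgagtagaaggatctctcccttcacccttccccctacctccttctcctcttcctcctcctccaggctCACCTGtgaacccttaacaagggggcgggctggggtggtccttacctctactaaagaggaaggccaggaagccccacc

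*Nlrp5* carried the letters CAGCTG at 145 and again at 107 bases before the start, *Tle6* carried CACGTG at 183 and at 119 bases, and *Padi6* carried CAGCTG at 166 and CACCTG at 78 bases. *Ooep* held 1 E-box (CACTTG, 78 bases before the RefSeq start, which lies 137 bases inside the principal GENCODE transcript), *Zbed3* held 3 and *Khdc3* held 5, of which a pair overlap. The pattern reads the same on both strands and is common: of 32851 RefSeq start regions in the whole window of 250 bases before to 50 bases after a start, 72.3% held at least 1, 39.6% at least 2, 17.6% at least 3 and 6.49% at least 4. In that whole window *Tle6* held a further CAAATG that runs across the start site, 3 in all. The letters TAATTG or TAGTTG, searched on both strands as those of the homeobox factor NOBOX, occurred once each in the windows of *Ooep* and *Padi6*, and in 13.9% of all windows. RefSeq lists further starts for *Nlrp5*, *Tle6* and *Zbed3*, and the start nearest to the principal transcript was used for each gene. The window of the other *Nlrp5* start, 18201 bases away, also held 1 of these letter runs. These are matches of letters only.

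*Ooep* was the most abundant member. It was listed at 1605, 2274 and 1591 FPKM in control libraries 1 to 3 and at 2305, 2329 and 1911 FPKM in aminophylline libraries 1 to 3. Control 1 and control 3 lay below all 3 aminophylline libraries, but control 2 lay among them, so the groups overlapped. The means were 1823 ± 390 and 2182 ± 235 FPKM (SD, n = 3 each), and the log2 fold change on the log2(FPKM + 1) scale was 0.27 with a 95% interval of −0.13 to 0.68 (limma, adjusted p = 0.728). That interval corresponds to 0.915-fold to 1.60-fold. *Ooep* ranked 20 in mean FPKM over all libraries.

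*Nlrp5* read 164, 184 and 273 FPKM in the control libraries and 191, 185 and 190 FPKM in the aminophylline libraries. The aminophylline values were nearly level and lay inside the control range, and control 3 was the highest of all. Means were 207 ± 58.1 and 189 ± 3.61 FPKM (SD, n = 3 each), a log2 difference of −0.10 (95% interval −0.52 to 0.33, limma adjusted p = 0.904). *Nlrp5* was the member with a lower mean log2 level in the aminophylline group, and its sign turned to 0.12 when control 3 was left out.

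*Tle6* showed the lowest single value relative to its own mean, with 375, 692 and 812 FPKM in the control libraries and 767, 688 and 653 FPKM in the aminophylline libraries. Control 1 was below every other library and control 3 above every other, with the aminophylline libraries between them. The means of 626 ± 226 and 703 ± 58.2 FPKM (SD, n = 3 each) gave a log2 difference of 0.24 (95% interval −0.31 to 0.79, limma adjusted p = 0.802). Without control 1 the log2 difference was −0.10.

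*Khdc3* was at 112, 133 and 142 FPKM in the control libraries and at 160, 110 and 161 FPKM in the aminophylline libraries. Both the lowest and the highest values were in the aminophylline group, which therefore spanned the control group entirely. The log2 difference was 0.14 (95% interval −0.27 to 0.56, limma adjusted p = 0.837), from means of 129 ± 15.4 and 144 ± 29.0 FPKM (SD, n = 3 each).

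*Padi6* was at 477, 670 and 1086 FPKM in the control libraries and at 667, 760 and 771 FPKM in the aminophylline libraries. The highest control library was 2.28 times the lowest, against 1.16 times in the aminophylline group, and the aminophylline values again lay between control 1 and control 3. Means were 744 ± 311 and 733 ± 57.5 FPKM (SD, n = 3 each), and the log2 difference of 0.06 (95% interval −0.50 to 0.61, limma adjusted p = 0.961) turned negative without control 1, at −0.22, and also after median centring, at −0.024, and quantile normalization, at −0.044.

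*Zbed3* was at 105, 107 and 145 FPKM in the control libraries and at 106, 158 and 144 FPKM in the aminophylline libraries. Each group held values near the bottom and near the top of the range. The means of 119 ± 22.8 and 136 ± 26.9 FPKM (SD, n = 3 each) gave a log2 difference of 0.19 (95% interval −0.25 to 0.62, limma adjusted p = 0.802).

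**Figure D1:**
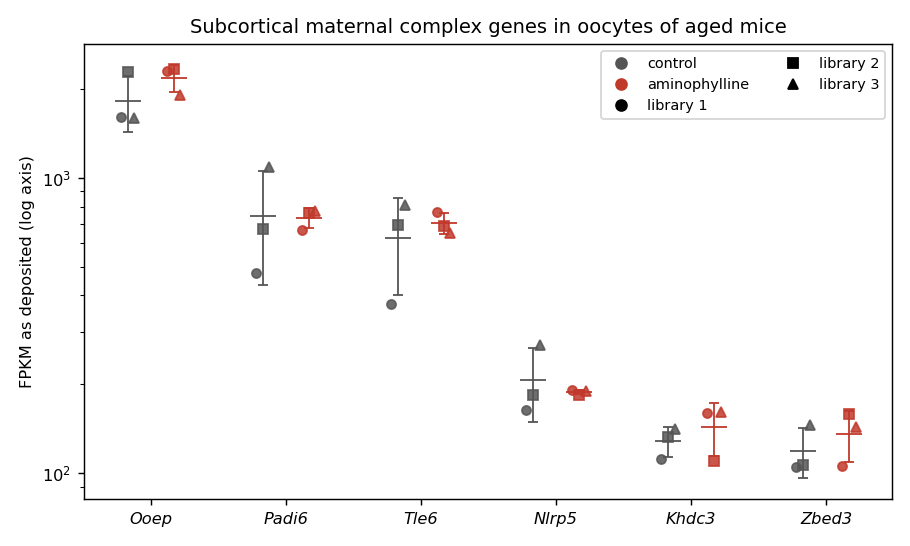
FPKM (log axis) of the 6 genes in each control (grey) and aminophylline (red) library, with marker shapes for the library number, horizontal marks for group means and bars for the SD (n = 3). The groups overlap for every gene, and the control points of *Tle6* and *Padi6* spread over 2.17 and 2.28 times.

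No member passed the test of aminophylline against control, whether by the adjusted or the unadjusted p. Among all tested genes 750 of 10340 (7.25%) had an unadjusted limma p under 0.05, so 0 of 6 members is close to that share. Of the 750 genes 456 were higher in the aminophylline group, against 347 of 875 after quantile normalization and 281 of 783 after median centring. After adjustment 0 genes (0%) passed, and 0 passed with limma-voom on the recovered reads, where 759 had an unadjusted p under 0.05. The lowest unadjusted p among the members was 0.162, for *Ooep*. The groups did not overlap for 12.5% of all tested genes and for 0 of the 6 members. In exact two-sided permutation tests of the FPKM values the p was 0.2 for *Ooep*, 0.6 for *Khdc3* and *Zbed3*, 0.9 for *Tle6* and *Padi6*, and 1 for *Nlrp5*, where 3 libraries against 3 cannot go below 0.1. The mean log2 level was higher in the aminophylline group for 5 of the 6 members (4 of 6 after quantile normalization or median centring), and their median difference was 0.17, beside 0.10 over all tested genes. The 95% intervals of the fold were 0.696 to 1.26 for *Nlrp5*, 0.805 to 1.73 for *Tle6*, 0.830 to 1.47 for *Khdc3*, 0.709 to 1.53 for *Padi6* and 0.842 to 1.54 for *Zbed3*.

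When same-numbered libraries were treated as pairs (the replicate block), again 0 of 6 members passed, beside 14.2% of all tested genes by the unadjusted p and 0.455% by the adjusted p. The smallest block adjusted p among the members was 0.435, for *Ooep* (limma). *Ooep* was the member whose result moved past the unadjusted threshold when 1 library was left out: without control 2, the shallowest, its log2 difference was 0.44 (limma unadjusted p = 0.0108, adjusted p = 0.181). In that fit 1617 of 10340 tested genes had an unadjusted limma p under 0.05, beside 750 with all 6 libraries.

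Control 1 was the lowest of all 6 libraries for *Nlrp5*, *Tle6*, *Padi6* and *Zbed3*. Macrophage transcripts were highest in the same library. Without *C1qb* their markers summed to 185 FPKM of 544188 FPKM there, and any link to the members was not tested. Control 1 was the lowest control library for 5 members and control 3 the highest for 5 members, while *Ooep* was lowest in control 3. The coefficient of variation between control libraries was 28.1% for *Nlrp5*, 36.1% for *Tle6* and 41.8% for *Padi6*, against 1.91%, 8.28% and 7.84% between aminophylline libraries. For *Khdc3* (11.9% against 20.2%) and *Zbed3* (19.2% against 19.8%) the aminophylline libraries spread at least as widely. The log2 SD was larger in the control group for 4 of 6 members (66.7%), beside 74.7% of all tested genes. Counting error was far smaller than this spread, at most 0.508% to 1.05% of a member's value, since each had at least 9128 reads in every library.

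**Figure D2:**
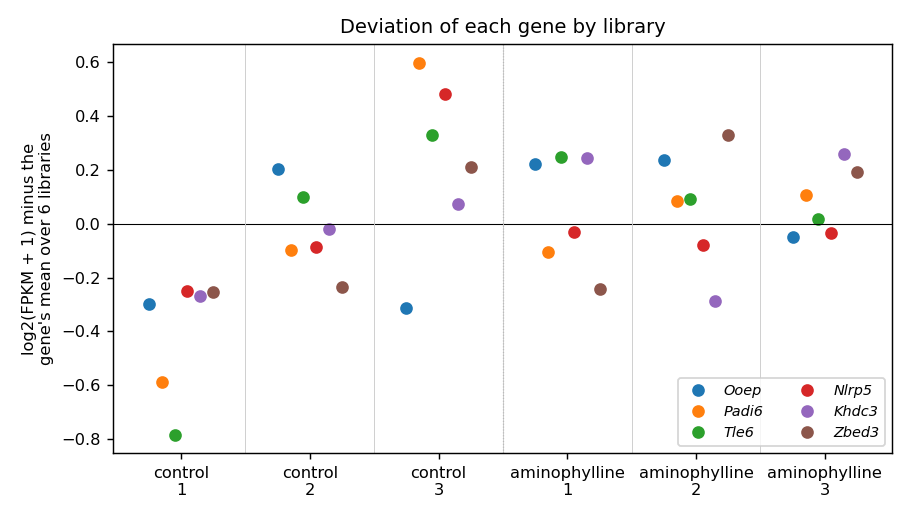
Deviation of log2(FPKM + 1) from each gene's mean over the 6 libraries, 1 column per library and 1 colour per gene. All 6 genes sit below 0 in control 1, and in control 3 *Ooep* sits below 0 while the other 5 sit above it.

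The summed level of the 6 genes was 2837, 4058 and 4049 FPKM in the control libraries and 4196, 4231 and 3831 FPKM in the aminophylline libraries. Control 1 was the low library, and the other control sums fell between the aminophylline sums. The sums averaged 3648 ± 702 and 4086 ± 221 FPKM (SD, n = 3 each, exact permutation p = 0.5), which was 0.521% to 0.794% of all FPKM in a library. Shares within the sum do not depend on the scaling between libraries, but they do depend on the transcript length used. By the deposited FPKM, *Ooep* made up 49.9% to 56.6% of the sum in 5 libraries and 39.3% in control 3, where *Padi6* made up 26.8% against 15.9% to 20.1% in the other libraries. *Tle6* contributed 13.2% (control 1) to 20.1% (control 3), *Nlrp5* 4.36% to 6.74%, *Khdc3* 2.61% to 4.21% and *Zbed3* 2.53% to 3.75%. The ratio of *Ooep* to *Padi6* by FPKM was 1.47 in control 3 and between 2.48 and 3.46 in the other 5 libraries. With the principal transcript length described below, *Ooep* made up 19.5% in control 3 and 25.5% to 31.6% in the other libraries, *Zbed3* made up 14.9% to 21.4% and *Khdc3* 7.25% to 11.1%. On that scale the ratio of *Ooep* to *Padi6* was 0.827 in control 3, below 1, and above 1 in the other libraries, at most 1.95. On either scale control 3 was the library with the lowest share of *Ooep* and the highest share of *Padi6*. The shares by principal length use reads counted over the authors' gene models, so those of *Zbed3* and *Khdc3* may be too high.

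The order of the 6 genes by FPKM rested in part on the transcript length used. By the deposited FPKM, *Ooep* (2003 ± 348, SD over 6 libraries) stood above *Padi6* (738 ± 200), *Tle6* (665 ± 154), *Nlrp5* (198 ± 38.1), *Khdc3* (136 ± 22.4) and *Zbed3* (128 ± 24.2). *Padi6* exceeded *Tle6* in 4 of 6 libraries and *Khdc3* exceeded *Zbed3* in 4 of 6, with mean log2 differences of 0.15 ± 0.24 and 0.10 ± 0.37 (SD), so these neighbours did not differ beyond their spread. The other neighbours kept their order in all 6 libraries.

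The length that the authors divided by could be recovered with the reads. It matched the principal GENCODE transcript for *Padi6* (2333 bases in both) and nearly so for *Nlrp5* (3521 and 3508 bases). For *Zbed3* it was 11641 bases against 1945, for *Khdc3* 4893 against 1681, for *Tle6* 2633 against 2015, and for *Ooep* 1207 against 2138. The *Zbed3* and *Khdc3* lengths also exceeded all annotated GENCODE exons of the gene together, 2231 and 2050 bases. The reads were counted over the authors' gene models, which may differ from the principal transcript. Division by the principal length may thus overstate genes with a longer model, such as *Zbed3* and *Khdc3*, and understate *Ooep*. How far was not tested. When the same reads were divided by the principal transcript length, *Zbed3* stood at 764 ± 145 depth-scaled reads per kilobase (SD, n = 6), close to *Padi6* at 738 ± 200 and *Tle6* at 868 ± 201, and *Nlrp5* became the lowest at 198 ± 38.3. *Ooep* remained first at 1131 ± 197 on this scale and exceeded *Tle6* in 5 of 6 libraries, while *Tle6*, *Zbed3* and *Padi6* exceeded their next neighbour in 3 of 6, 3 of 6 and 6 of 6 libraries. A gene's length is 1 value for all libraries, so the comparison of the groups is the same on either scale apart from the pseudocount.

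**Figure D3:**
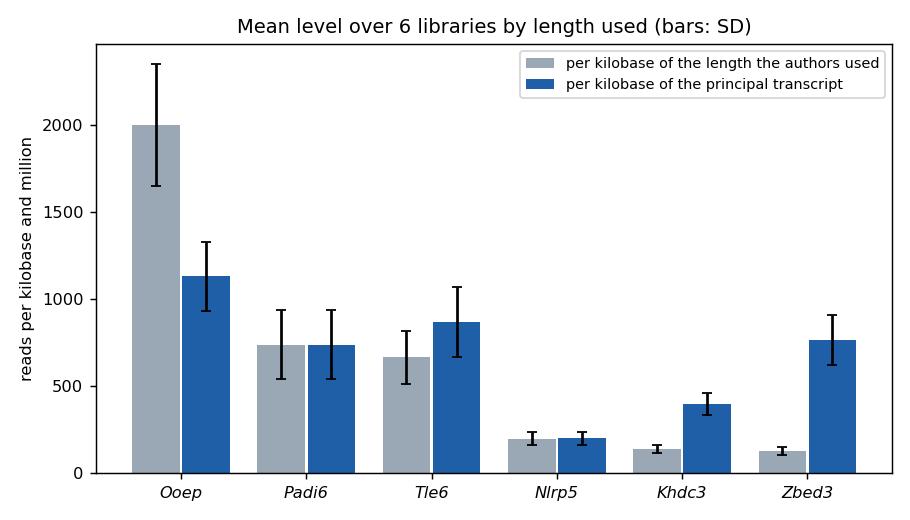
Mean over 6 libraries with SD of each gene's depth-scaled reads per kilobase, by the length the authors used (grey) and by the principal GENCODE transcript (blue). *Zbed3* moves from 128 to 764 and *Ooep* from 2003 to 1131, whereas *Padi6* and *Nlrp5* hardly move. Both scales use the reads of the authors' gene models, so the blue bars may be too high where the authors' length is longer.

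Each member's pattern over the 6 libraries was set against 4271 other tested genes with a mean FPKM of at least 10, by the root mean square difference of log2(FPKM + 1) after centring each gene. The genes most like *Ooep* were *Chchd6* (0.026), *Romo1* (0.040) and *Vamp8* (0.040), and those most like *Nlrp5* were *Ensa*, *Rbm38* and *Abcf2* (0.051 to 0.059). *Fam151a*, *Pld3* and *Ptgis* were nearest to *Tle6* (0.078 to 0.10), *C1qbp*, *Coq9* and *Optn* to *Khdc3* (0.053 to 0.062), *Cd177*, *Tmbim1* and *Vil1* to *Padi6* (0.068 to 0.089), and *Wbp2*, *Styk1* and *2700049A03Rik* to *Zbed3* (0.073 to 0.079). No member was among the nearest 3 of another. The closest pair of members was *Padi6* and *Nlrp5* (0.173), with *Nlrp5* at rank 83 from *Padi6*, followed by *Padi6* and *Tle6* (0.216, rank 197). *Ooep* was the least alike, at 0.439 from *Padi6*, where the median gene was at 0.310 from *Ooep*. All of these values share the same 6 libraries and describe them only.

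Of 11 partners of the complex and components of the lattices, all were tested, 1 rose and 1 fell by the unadjusted p, and 0 passed the adjusted p (median log2 difference 0.01, beside 0.10 over all tested genes). These 2 calls are 18.2% of the list, beside 7.25% of all tested genes. With the replicate block 4 of 11 had an unadjusted p under 0.05, beside 14.2% of all tested genes, and 0 passed the adjusted p. *Dnmt1*, the maintenance DNA methyltransferase, rose from 65.6 ± 19.4 to 105 ± 27.5 FPKM (SD, n = 3 each), a log2 difference of 0.69 (limma unadjusted p = 0.0188, adjusted p = 0.682). Its values were 45.9, 66.1 and 84.7 FPKM in the control libraries and 77.3, 107 and 132 FPKM in the aminophylline libraries, so the groups overlapped at 1 library each. *Ywhae*, a 14-3-3 adaptor, went from 109, 60.9 and 99.3 FPKM in control to 55.8, 55.5 and 65.9 FPKM in the aminophylline libraries, where control 2 lay inside the aminophylline range. It fell by 0.56 on the log2 scale (unadjusted p = 0.0272, adjusted p = 0.682 by limma). *Uhrf1*, the partner of *Dnmt1* and a lattice protein, had a log2 difference of 0.56 (limma adjusted p = 0.721). It did not pass without the block, and its unadjusted p with the replicate block was 0.00609 (limma adjusted p = 0.174). The lattice-bound NLR gene *Nlrp14* was at 635 ± 147 and 603 ± 11.4 FPKM (SD, n = 3 each), less spread in the aminophylline group as *Nlrp5* was, with a log2 difference of −0.05 (limma adjusted p = 0.948). *Ube2d3*, a ubiquitin-conjugating enzyme, was lower in all 3 aminophylline libraries (460 to 523 FPKM) than in the control libraries (543 to 616 FPKM) but did not pass (limma unadjusted p = 0.133). It was the 1 of 11 partners without overlap, beside 12.5% of all tested genes. *Skp1* and *Cfl1* differed by 0.03 each, *Nlrp4f* by 0.01, *Nlrp2* by −0.13, *Ywhah* by −0.14 and *Axin1* by 0.46 on the log2 scale, and none passed without the block. *Axin1* had an unadjusted limma p of 0.0368 with the replicate block (limma adjusted p = 0.316).

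Of 11 transcription factors of the oocyte and their E-box partners, 8 were tested, and 1 rose by the unadjusted p (12.5% of the list, beside 7.25% of all tested genes). With the replicate block 2 of 8 had an unadjusted limma p under 0.05, *Figla* (0.0122) and *Tcf3* (0.0261), beside 14.2% of all tested genes. By the adjusted p with the block 0 passed. *Figla* was at 45.6, 78.4 and 51.8 FPKM in the control libraries and at 85.9, 79.7 and 77.6 FPKM in the aminophylline libraries, with control 2 inside the aminophylline range. Its log2 difference was 0.50 (limma unadjusted p = 0.0330, adjusted p = 0.682). *Nobox* (298 ± 77.4 and 299 ± 55.0 FPKM) and *Lhx8* (65.0 ± 16.8 and 64.9 ± 13.5 FPKM) differed by 0.03 and 0.01 on the log2 scale (SD, n = 3 each). *Tcf3*, which encodes an E-box partner of FIGLA, was low, at 1.56 ± 0.624 and 2.53 ± 0.746 FPKM. Its log2 difference was 0.47 (limma unadjusted p = 0.0819 without the block). *Sohlh1* was below the filter.

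**Figure D4:**
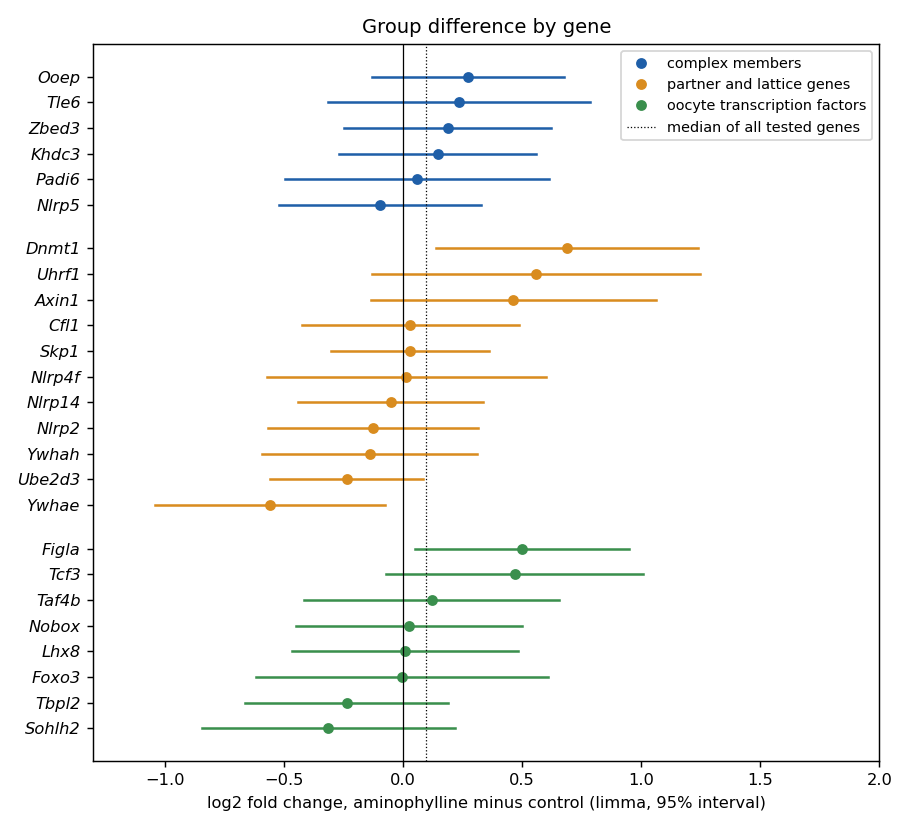
Log2 difference (aminophylline minus control, on log2(FPKM + 1)) with its 95% interval from limma for the 6 members (blue), 11 partner and lattice genes (orange) and 8 tested oocyte transcription factors (green), with a dotted line at the median of all tested genes, 0.10. The intervals of all 6 members cross 0, and those of *Dnmt1*, *Ywhae* and *Figla* do not.

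Of 21 tested relatives of the members by gene family, 1 had an unadjusted p under 0.05 (4.8%, beside 7.25% of all tested genes). Among other NLRP-family genes, 11 of the 16 in the table were tested and 0 were called (median log2 difference −0.07), with *Nlrp9c* at 216 ± 25.2 and 185 ± 11.5 FPKM. Beside *Padi6*, the most abundant peptidylarginine deiminase was *Padi4* at 3.15 ± 0.426 and 3.13 ± 0.654 FPKM, and beside *Tle6* it was *Tle5* at 3.68 ± 1.93 and 4.59 ± 0.732 FPKM (SD, n = 3 each). *Zbed4* and *Zbed5*, the tested relatives of *Zbed3*, differed by 0.04 and 0.20 on the log2 scale and did not pass. The relative past the unadjusted threshold was *Khdc1a*, 1 of 5 tested genes with KH-type domains related to *Ooep* and *Khdc3*. It read 8.48, 9.67 and 13.6 FPKM in the control libraries and 15.3, 23.7 and 27.8 FPKM in the aminophylline libraries, without overlap, a log2 difference of 0.99 (limma unadjusted p = 0.00238, adjusted p = 0.651, and 0.0219 with the replicate block). Such a lack of overlap was seen for 12.5% of all tested genes, in either direction. *Dppa5a*, the neighbour of *Ooep*, was at 990 ± 333 and 1173 ± 108 FPKM (SD, n = 3 each), a log2 difference of 0.29 that did not pass (limma adjusted p = 0.750).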

How the data were processed

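Oocyte RNA of 3 control and 3 aminophylline libraries was measured, and groups were taken from the labels. The authors deposited FPKM values per gene, with no further scaling between libraries. The submitters' processing notes name GRCm38 and mm10, and the aligner, counter, annotation and strandedness are not given in the sources used here. The study states two-tailed unpaired tests for its data in general and does not say how transcripts were called. Here limma 3.58.1 in R 4.3.3 (moderated variance with a trend on the mean) was applied to log2(FPKM + 1) of the 10340 genes reaching an FPKM of 1 in 3 or more libraries, two-sided, with Benjamini-Hochberg adjustment over all of them and thresholds of 0.05, and the code was tested on simulated data. Fold changes on this scale understate those of low genes.

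Reads were recovered as whole numbers from ratios of FPKM values between libraries, within 0.0001 of a read, for 100% of 22583 genes. Counting errors cover counting only. Transcripts came from GENCODE M21 (GRCm38), start regions from RefSeq (GRCm38.p6). Python 3.11.15 with numpy 2.4.6, pandas 2.3.3 and matplotlib 3.10.9 was used.

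All members, all partners and all transcription factors could be named. From each other list the 2 genes of highest mean FPKM and the gene of smallest p in each direction could be named, and for likeness the 3 nearest genes. Members and lists were chosen with earlier results of these data known. Deviations of same-numbered libraries correlated at 0.138, 0.140 and 0.552 over the tested genes for numbers 1, 2 and 3. Control 2 deviated most like aminophylline 1 and not like aminophylline 2, so the pairing is uncertain. The replicate number was used as a block in an alternative fit only. The pairing comes from the numbers in the labels, and no source says what they share. Other alternatives were the pseudocount, filter, scaling, moderation, library weights, recovered reads and leaving out each library.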

Additional observations from a re-analysis of the deposited data

How the results depend on the processing

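Of 165 alternative values, 156 were rated the same, 5 log2 differences reversed, 2 passed the unadjusted threshold and 2 counts of members moved. The 165 include shares within the sum, which have no threshold and cannot turn negative. The 156 therefore overstates how stable the log2 differences were. The number of members with an unadjusted p under 0.05 moved from 0 to 1 (*Ooep*) with library weights, where the log2 difference of *Ooep* was 0.37, and without control 2, where it was 0.44, so it ranged from 0 to 1 over the libraries left out. Leaving out 1 library each gave log2 differences of −0.25 to 0.12 for *Nlrp5* (positive without control 3), 0.19 to 0.44 for *Ooep*, −0.10 to 0.46 for *Tle6* (negative without control 1) and −0.22 to 0.37 for *Padi6* (negative without control 1). They were 0.05 (without control 1) to 0.32 (without aminophylline 2) for *Khdc3* and 0.07 (without aminophylline 2) to 0.35 (without aminophylline 1) for *Zbed3*, always positive and never past the threshold. *Padi6* was also negative with quantile normalization (−0.044) and with median centring (−0.024), which moved the median of all genes from 0.10 to 0.01. The cause of these turns was not tested. With 1 library left out, the median over members ranged from −0.025 (without control 1) to 0.28 (without control 3), and it was 0.32 with library weights. With the replicate block, 0 members passed at either threshold, and the adjusted p of *Ooep* was 0.435. No member passed the adjusted p in any alternative, the lowest being 0.181. The number of all tested genes with an unadjusted p under 0.05 was 750. It was 1404 with no filter, 1467 with the replicate block and 2011 with library weights. With 1 library left out it was 329 (without aminophylline 2) to 1617 (without control 2). By the adjusted p it was 0, and 47 with the replicate block.

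With 3 libraries a group, the 95% intervals reach 1.60-fold for *Ooep* and 1.73-fold for *Tle6*. The levels of *Zbed3* and *Khdc3* relative to other genes depend on transcript lengths of unknown origin.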

Other observations

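Other maternal-effect genes, whose products also act in the embryo, were tested for 24 of the 25 listed. By the unadjusted limma p 3 rose and 0 fell, which is 12.5% of the list beside 7.25% of all tested genes. The 3 were *Zar1*, *Npm2* and *Dnmt1*. *Dnmt1* is also on the partner list and *Npm2* is also an oocyte marker, so the calls in these lists are not separate. With the replicate block 7 were higher and 1 lower at an unadjusted p under 0.05, 8 of 24, beside 14.2% of all tested genes. The median log2 difference was 0.25, beside 0.10 over all tested genes. Of the 24 genes 3 were higher and 2 lower without overlap, beside 12.5% of all tested genes in either direction. *Zar1*, which stores maternal mRNA, was at 238, 396 and 400 FPKM in the control libraries and at 585, 473 and 677 FPKM in the aminophylline libraries, without overlap, which gave a log2 difference of 0.77 (limma unadjusted p = 0.00530, adjusted p = 0.651, and 0.0495 with the replicate block). *Npm2*, an oocyte histone chaperone, was at 241 to 304 FPKM in control and 378 to 403 FPKM in the aminophylline libraries, and its log2 difference was 0.47 (limma adjusted p = 0.664). The most abundant gene of this list, *Dppa3*, differed by −0.08 on the log2 scale (limma adjusted p = 0.925), and *Zfp57*, which guards imprints, by −0.39 (limma unadjusted p = 0.0522, adjusted p = 0.685, and unadjusted p = 0.0408 with the replicate block).

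Among the oocyte markers 1 of 10 rose (*Npm2*, counted above as well) and 0 fell by the unadjusted p. By the same limma p, 7.25% of all tested genes were called in either direction. The zona pellucida gene *Zp2* was lower in all 3 aminophylline libraries (667 to 702 FPKM) than in the control libraries (734 to 1071 FPKM), with a log2 difference of −0.32 that did not pass (limma adjusted p = 0.715). Of the 10 markers 2 were higher and 1 (*Zp2*) was lower without overlap, beside 12.5% of all tested genes in either direction. Markers of theca and stroma summed to at most 1.91 FPKM in any library, those of erythrocytes to at most 0.585 FPKM and those of endothelium to 5.63 to 8.89 FPKM.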
